A study of Mus musculus with 6 samples.

Results

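Glp1r, Crhbp and 8 further receptor genes of peptide hormones were followed in mouse B cell precursors labelled Etv5 knockout or Etv5 wild type. These 10 genes are Crhbp, which encodes the binding protein of corticotropin-releasing hormone (CRH), and the secretin-family receptor genes Glp1r, Glp2r, Gcgr, Gipr, Crhr1, Crhr2, Vipr1, Vipr2 and Adcyap1r1. They were found by gene symbol in the array's annotation table: 11 probe sets name 1 of the 10 genes, out of 19938 genes with a probe set of their own and 35556 probe sets in all. Vipr1 has a pair of probe sets and is represented by the brighter one, by mean over the 6 arrays. Glp1r and Crhbp were chosen by their measured difference between the genotypes on these same arrays, so their values are given as a description without a test. The other 8 belong by gene family.

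The cells were BCR-ABL1-transformed pre-B cells of 129SvEv mice, a model of BCR-ABL1-driven acute lymphoblastic leukemia (Ph+ ALL), either Etv5 knockout (KO, 3 samples) or Etv5 wild type (WT, 3 samples). BCR-ABL1, the fusion tyrosine kinase of the Philadelphia chromosome, is present in both groups, and Etv5 is an ETS-family transcription factor. The labels do not describe the knockout allele, the transforming vector or the age of the mice. They also leave unsaid whether replicates were separate mice or cultures, and p-values therefore cover the spread between samples alone, be it technical or biological. Total RNA was read on 1-colour arrays, and every signal below is a log2 value per probe set after the authors' RMA (robust multi-array average) normalization.

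Secretin-family receptors are G protein-coupled receptors with a large extracellular domain that binds a peptide hormone. They act mainly through the stimulatory G protein and adenylyl cyclase, which makes cAMP, and cAMP activates protein kinase A and transcription factors of the CREB family. They are best known from pancreatic islets, gut, brain and pituitary, and receptors of vasoactive intestinal peptide (VIP) are also known from lymphocytes. CRH-binding protein is not a receptor: it is a secreted protein that binds CRH and urocortin and keeps them from their receptors.

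The promoters of Glp1r and Crhbp are shown because the samples are labelled knockout for an ETS factor and because these 2 genes were chosen for their difference. Each window is 300 bases long, 250 before and 50 after the RefSeq start (build GRCm38.p6), written 5′ to 3′ on the gene's strand: chr17:30901617-30901916 on the plus strand for Glp1r and chr13:95444782-95445081 on the minus strand for Crhbp. Capitals mark the ETS core GGAA and the core TGACG of the cAMP response element, on either strand.
Glp1r: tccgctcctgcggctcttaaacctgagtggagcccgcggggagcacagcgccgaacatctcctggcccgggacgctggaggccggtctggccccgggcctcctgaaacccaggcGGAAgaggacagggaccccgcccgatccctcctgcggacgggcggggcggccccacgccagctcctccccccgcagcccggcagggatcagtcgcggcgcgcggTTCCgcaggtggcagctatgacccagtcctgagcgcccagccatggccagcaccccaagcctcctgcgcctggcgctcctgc
Crhbp: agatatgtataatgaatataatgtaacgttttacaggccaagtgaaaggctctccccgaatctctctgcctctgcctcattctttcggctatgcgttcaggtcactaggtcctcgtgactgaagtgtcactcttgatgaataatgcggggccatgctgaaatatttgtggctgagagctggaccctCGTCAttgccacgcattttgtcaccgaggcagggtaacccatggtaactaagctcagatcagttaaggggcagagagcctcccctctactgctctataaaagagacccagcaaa
The Glp1r window held GGAA 1 time on each strand and the Crhbp window held none, whereas 96.0% of 32851 RefSeq promoter windows of this length hold at least 1. Crhbp held TGACG 1 time, on the opposite strand. The longer ETS core CCGGAA, which contains GGAA and is present in 14.9% of all windows, was in neither. Of the 9 genes with an entry in the promoter table, 1 (Adcyap1r1) held CCGGAA, 2 (Crhbp and Vipr1) held TGACG, against 20.8% of all windows, and 8 held GGAA. None of the 9 held the full cAMP response element TGACGTCA, of which TGACG is a part and which 1.79% of all windows hold. The Glp1r window was rich in G and C (73.7%, with 29 CpG pairs), that of Crhbp less so (48.0%, 9 CpG pairs). A match of letters is a description and shows no binding.

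The table used holds no detection calls, so a ruler of dim signal was taken from 1210 probe sets of olfactory and vomeronasal receptor genes, genes characteristic of sensory neurons. The 95th percentile of their mean signal, 7.22, served as the dim limit, and 37.9% of all probe sets lay below it. The limit marks dim values but does not show expression above it: of 11 islet and neuroendocrine markers, none of which passed the test between genotypes, 7 lay above it in both genotypes. Of the 10 genes, 7 lay above the limit in both genotypes, Glp2r and Gcgr lay below it in both, and Glp1r lay above it in WT cells only. Against the 99th percentile of the same ruler, 8.01, only Vipr2 and Adcyap1r1 lay above in both.

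Array medians lay between 7.79 and 7.84. All 11 measured B cell precursor markers were above the dim limit in both genotypes, with list means of 12.28 to 12.39 in KO arrays and 12.28 to 12.35 in WT arrays. Of the 11, Pax5 rose by 0.43 and Dntt fell by 0.37 (limma adjusted p = 0.0127 and 0.0132). Above the limit in both genotypes were 3 of 9 myeloid markers, 2 of 7 T and NK cell markers, 2 of 5 erythroid and megakaryocyte markers and 4 of 8 stromal and endothelial markers. Per array, the means of these 4 lists lay between 6.57 and 7.68 in KO samples and between 6.60 and 7.74 in WT samples, and that of the myeloid list between 6.81 and 7.00 in KO samples and 6.86 and 6.95 in WT samples. Among these 4 lists, Itgam alone passed the test, higher in KO cells by 0.60 (limma adjusted p = 0.0235). Pax5, Dntt and Itgam were named after their values were seen. For Etv5, the targeted gene on chromosome 16, the annotation names a pair of probe sets. Probe set numbers mostly follow chromosome order. The number of the dimmer one falls among those of chromosome 16 genes. That of the brighter one falls between those of chromosome 1 and chromosome 10 genes. The brighter one may therefore read another locus, which was not checked. The dimmer one averaged 8.93 ± 0.033 in KO cells and 9.37 ± 0.14 in WT cells (SD, n = 3 each). Its difference of -0.43 passed the test (limma adjusted p = 0.0467). The brighter one averaged 11.76 ± 0.11 in KO cells and 11.49 ± 0.031 in WT cells. Its difference of 0.28 went the other way and did not pass (limma adjusted p = 0.13). Both lay above the dim limit in both genotypes, so these arrays do not show Etv5 RNA to be absent from KO cells. Whether either probe set lies in the deleted part is not known. Among the 8 receptors other than Glp1r, KO sample 1 and WT sample 2 were both the highest of their genotype in 6 (75%). The share was 20.2% over all genes and 14.4% over the olfactory and vomeronasal probe sets. This pair of samples was picked after the values of the 8 were seen, so the count is a description. Without KO sample 1 or without WT sample 2, none of the 8 passed the limma test; without WT sample 2 the difference of Vipr1 was 0.21 in place of 0.06 and that of Gipr 0.13 in place of 0.03, and without KO sample 1 they were -0.0019 and -0.07.

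**Figure D1:**
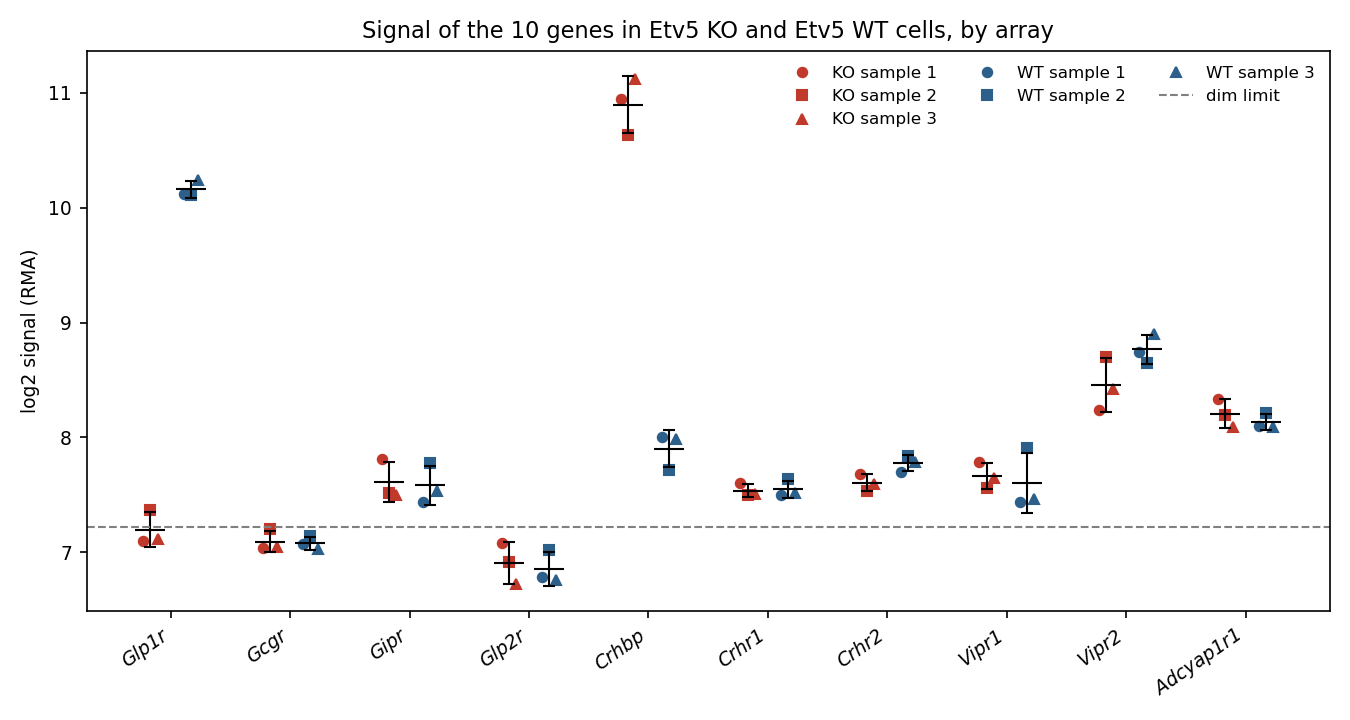
Log2 signal (vertical axis) of the 10 genes on each array, with Etv5 KO samples in red left of Etv5 WT samples in blue. Black bars give the mean and SD of 3 samples, and the dashed line is the dim limit of 7.22. Glp1r in KO cells sits at that limit and Crhbp in KO cells far above it, while the groups overlap in 7 of the other 8 genes.

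Glp1r, the receptor of the incretin hormone glucagon-like peptide-1 (GLP-1), was chosen for its difference between genotypes. Its gap was the widest of the measured secretin-family genes, an outcome which that choice favours. Its signal was 7.10, 7.37 and 7.12 in KO samples 1 to 3 and 10.12, 10.11 and 10.25 in WT samples 1 to 3. All 3 KO values lay below all 3 WT values, with a gap of 2.74 between the groups, and the samples within a genotype lay close together. The means were 7.20 ± 0.15 in KO cells and 10.16 ± 0.075 in WT cells (SD, n = 3 each). The difference was -2.96, a signal 7.80-fold lower in KO cells and rank 2 from the bottom among 19938 genes. The KO mean lay 0.021 below the dim limit, so the remaining signal was not told apart from background and the fold may understate the change. In array terms the probe set stood at percentile 37.4 of all probe sets in KO cells and at percentile 75.0 in WT cells. In bulk RNA, fewer expressing cells and less RNA per cell cannot be told apart.

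The other receptors of the glucagon group did not pass the test, and Gcgr and Glp2r were dim. Gcgr, the glucagon receptor of liver, had values of 7.03, 7.20 and 7.04 in KO cells and 7.07, 7.14 and 7.03 in WT cells, all under the dim limit. Its difference was 0.01 (95% interval -0.15 to 0.18, limma adjusted p = 0.989). Glp2r, the receptor of the intestinal growth peptide GLP-2, measured 7.08, 6.91 and 6.72 in KO cells and 6.78, 7.02 and 6.76 in WT cells, also under the limit in every sample. Its difference was 0.05 (95% interval -0.23 to 0.33). Gipr, the receptor of the other incretin, GIP, measured 7.81, 7.52 and 7.50 in KO cells and 7.44, 7.77 and 7.53 in WT cells. The groups overlapped fully, and the difference was 0.03 (95% interval -0.27 to 0.33). The intervals of Gcgr, Glp2r and Gipr hold no change as large as that of Glp1r, but RMA compresses differences of dim probe sets.

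Crhbp differed the other way. Its signal was 10.95, 10.63 and 11.12 in KO samples 1 to 3 and 8.01, 7.72 and 7.98 in WT samples 1 to 3. Every KO value lay above every WT value, with a gap of 2.62 between the groups. The means were 10.90 ± 0.25 in KO cells and 7.90 ± 0.16 in WT cells (SD, n = 3 each), a difference of 2.995 and a signal 7.97-fold higher in KO cells. Crhbp held rank 6 from the top among 19938 genes. In WT cells its signal stood near the middle of all probe sets (percentile 51.3) and 0.69 above the dim limit; in KO cells it stood at percentile 81.7.

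The receptors of the peptides that CRHBP binds did not pass the test. Crhr1, the pituitary CRH receptor, measured 7.60, 7.50 and 7.51 in KO cells and 7.50, 7.64 and 7.51 in WT cells, a difference of -0.01 (95% interval -0.16 to 0.14, limma adjusted p = 0.988). Crhr2, the urocortin receptor, measured 7.68, 7.54 and 7.59 in KO cells and 7.70, 7.84 and 7.78 in WT cells. The 3 KO values of Crhr2 lay just below the 3 WT values, the one case of groups apart among the 8 receptors, where 20.5% of all genes have groups apart. Its difference was -0.17 (95% interval -0.33 to -0.01), with an unadjusted p of 0.0364 and a limma adjusted p of 0.389. The ligand genes Crh (5.32 in KO, 5.28 in WT) and Ucn3 (7.19 in both genotypes) were under the dim limit, while Ucn averaged 7.67 in KO cells and 7.69 in WT cells and Ucn2 averaged 7.22 in KO cells and 7.26 in WT cells, near the limit. These ligand genes were named after their values were seen.

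Among the VIP and PACAP receptors, Vipr2 and Adcyap1r1 lay farthest above the dim limit of the 8, and none passed the test. Vipr2, a VIP receptor inducible in lymphocytes, measured 8.24, 8.70 and 8.43 in KO cells and 8.75, 8.65 and 8.90 in WT cells. KO sample 2 overlapped the WT range; the difference was -0.31 (95% interval -0.63 to 0.01, limma adjusted p = 0.467), and leaving out KO sample 2 gave -0.43 with an adjusted p of 0.188. Adcyap1r1, the receptor of the neuropeptide PACAP, measured 8.34, 8.19 and 8.09 in KO cells and 8.10, 8.22 and 8.09 in WT cells, with overlapping groups and a difference of 0.07 (95% interval -0.12 to 0.27). Vipr1, the VIP receptor of resting T cells, measured 7.78, 7.56 and 7.65 in KO cells and 7.44, 7.91 and 7.46 in WT cells on its brighter probe set. Its difference was 0.06 (95% interval -0.28 to 0.40), and its second probe set gave 0.05 (95% interval -0.14 to 0.24), and neither passed.

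None of the 8 receptors passed limma with Benjamini-Hochberg adjustment over all probe sets at 0.05, where 4.43% of the 19938 genes (2.42% higher and 2.01% lower in KO cells) and 3.08% of all probe sets did. At an unadjusted p under 0.05 there was 1 of 8, Crhr2, beside 13.4% of all genes. Their differences ran from -0.31 to 0.07 with a median of 0.02, beside a median of -0.0039 over all genes. The 8 adjusted p-values lay between 0.389 and 0.989, and the widest limits of their 95% intervals were -0.63 and 0.40.

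**Figure D2:**
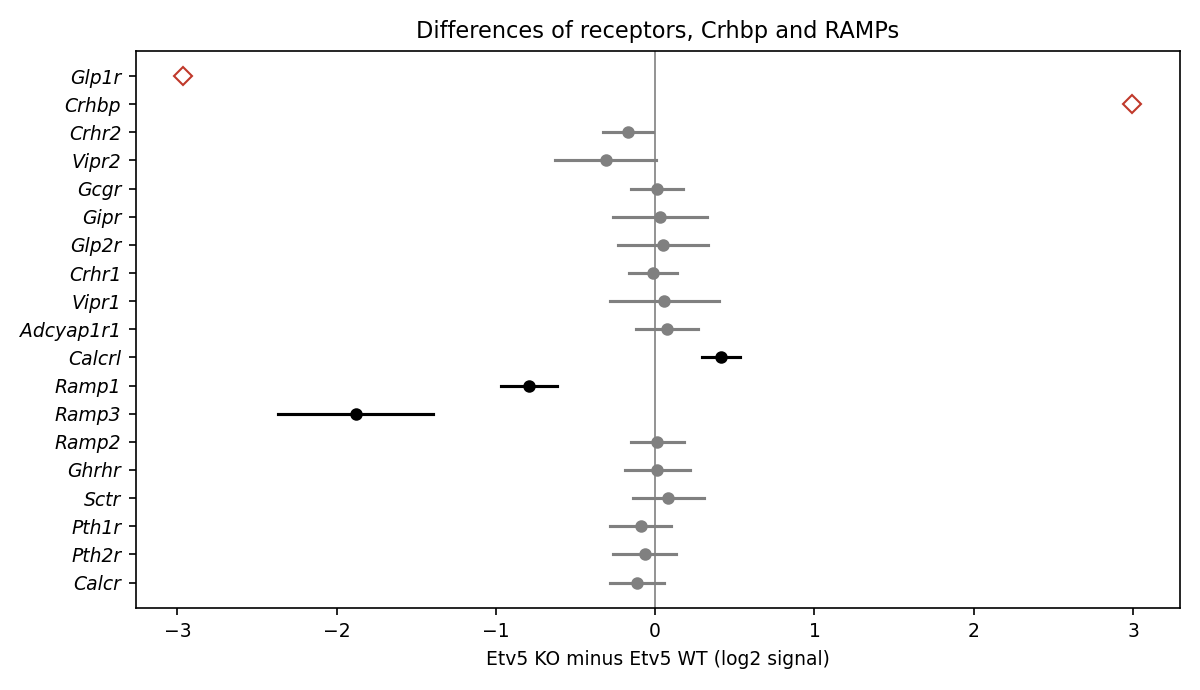
Etv5 KO minus Etv5 WT difference in log2 signal (horizontal axis) for the 10 genes and for other secretin-family receptors and receptor activity-modifying proteins. Open diamonds are Glp1r (-2.96) and Crhbp (2.995), chosen for their difference and drawn without a test; circles have 95% intervals, black where the limma test was passed (Ramp3, Ramp1 and Calcrl) and grey where it was not.

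Outside the 10 genes, Calcrl, Ramp1 and Ramp3 passed the test. Calcrl is the receptor that becomes a receptor of calcitonin gene-related peptide or adrenomedullin depending on which receptor activity-modifying protein (RAMP) it pairs with. Calcrl rose by 0.41 ± 0.049 (SE, log2, limma adjusted p = 0.00851), with 11.25, 11.28 and 11.21 in KO cells and 10.83, 10.81 and 10.86 in WT cells. Its partner Ramp3 fell by 1.88 ± 0.20 (SE, limma adjusted p = 0.00582), with 7.68, 8.20 and 7.38 in KO cells and 9.54, 9.71 and 9.65 in WT cells. Ramp1 fell by 0.79 ± 0.072 (SE, limma adjusted p = 0.00315), with 8.49, 8.71 and 8.52 in KO cells and 9.33, 9.37 and 9.40 in WT cells. In each of these 3 genes the groups did not overlap, where 20.5% of all genes have groups apart. The 3 were named for passing the test, which favours groups apart. The spread of Ramp3 in KO cells, an SD of 0.41, was the widest of them. Ramp2, the third RAMP, averaged 7.57 in KO cells and 7.55 in WT cells (difference 0.01, adjusted p = 0.988) and was named after its values were seen.

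The list of other secretin-family receptors and RAMPs also holds Crcp, which is neither and was named after its values were seen. Crcp differed by 0.05 (limma adjusted p = 0.957). Of the 10 measured genes of the list, 1 rose, 2 fell and 7, Crcp among them, did not pass. This count is to be read beside the 4.43% of all genes called. The list's median difference was -0.03. The calcitonin receptor gene Calcr (-0.11), the parathyroid hormone receptor genes Pth1r (-0.09) and Pth2r (-0.07) and the secretin receptor gene Sctr (0.08) had limma adjusted p-values from 0.712 to 0.925. Calcr and Pth2r were below the dim limit in both genotypes. Calcrl lost its call without WT sample 1 (adjusted p = 0.0561) or WT sample 2 (0.0531), whereas Ramp1 and Ramp3 kept theirs in each fit that left out 1 sample (highest 0.0228 and 0.0322).

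No ligand gene of the family passed the test, and many were dim. Of 16 measured peptide ligand genes, 8 lay below the limit in both genotypes, among them Gcg, the precursor of glucagon and GLP-1, at 6.70 in KO cells and 6.76 in WT cells, and Vip at 6.21 in KO cells and 6.14 in WT cells. None of the 16 passed limma, and none had an unadjusted p under 0.05. The smallest p-values belonged to Gip (-0.15, adjusted p = 0.534), the parathyroid hormone relative Pth2 (-0.13, 0.759), the growth hormone-releasing hormone gene Ghrh (0.11, 0.893) and Pth (-0.07, 0.896). Gcg and Vip were named after their values were seen. The median difference of the list was -0.02.

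Among 7 measured enzymes that make or break down peptide hormones, 2 rose, none fell and 5 did not pass, where 4.43% of all genes were called. Cpe, the carboxypeptidase that trims peptide hormone precursors, rose by 1.46 ± 0.079 (SE, limma adjusted p = 0.0005), with 7.89, 8.06 and 8.10 in KO cells and 6.64, 6.47 and 6.56 in WT cells, where it was below the dim limit. Pam, the enzyme that amidates peptide ends, rose by 0.86 ± 0.054 (SE, limma adjusted p = 0.000839), with 8.44, 8.55 and 8.57 in KO cells and 7.66, 7.66 and 7.67 in WT cells. The convertase gene Pcsk1, whose product makes the first cuts in many hormone precursors, was below the limit in both genotypes (6.88 in KO, 6.82 in WT). Dpp4, encoding the peptidase that inactivates GLP-1 and GIP and named after its values were seen, was bright in both genotypes, at 13.57 in KO cells and 13.58 in WT cells (difference -0.01, adjusted p = 0.983). Ide, the insulin-degrading enzyme, differed by -0.17 (adjusted p = 0.336), and the peptidase genes Mme (-0.06) and Fap (0.06) were dim.

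Of the genes of cAMP signalling downstream of these receptors, 5 passed the test, in both directions. Adcy6, an adenylyl cyclase, fell by 1.21 ± 0.063 (SE, limma adjusted p = 0.000427), with 8.14, 8.28 and 8.32 in KO cells and 9.43, 9.48 and 9.47 in WT cells. Gnai1, an inhibitory G protein alpha subunit, rose by 1.07 ± 0.063 (SE, limma adjusted p = 0.000646), with 8.21, 8.26 and 8.37 in KO cells and 7.14, 7.24 and 7.24 in WT cells, close to the dim limit. The groups of both genes lay far apart. The cyclase genes Adcy3 and Adcy7 rose by 0.43 and 0.38 (limma adjusted p = 0.0153 and 0.0358), and Prkar2b, a regulatory subunit of protein kinase A, rose by 0.30 (adjusted p = 0.03). Adcy3 averaged 9.10 ± 0.081 in KO cells and 8.67 ± 0.019 in WT cells, Adcy7 9.57 ± 0.091 in KO cells and 9.20 ± 0.045 in WT cells, and Prkar2b 11.63 ± 0.037 in KO cells and 11.33 ± 0.025 in WT cells (SD, n = 3 each).

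Of the 33 measured genes between receptor and cAMP response, 4 rose, 1 fell and 28 did not pass, where 4.43% of all genes were called, with a median difference of -0.02. Prkar2a (0.30, limma adjusted p = 0.266), the receptor kinase gene Grk5 (-0.26, 0.352), the cAMP-regulated exchange factor gene Rapgef3 (-0.13, 0.528) and the phosphodiesterase gene Pde4d (-0.13, 0.585) came next by p. For Gnas, Prkaca, Rapgef4 and Adrbk1 the annotation table gives no probe set of their own. Adcy6 and Gnai1 kept their calls in each fit that left out 1 sample, whereas Adcy7 and Prkar2b lost theirs in all 6 (highest adjusted p 0.16 and 0.14) and Adcy3 in 4, those without KO sample 3 or any 1 of the WT samples (highest 0.0828). Prkar2b also lost its call with arrays set to a common median.

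Of 19 measured CREB factors and cAMP-induced genes, 3 rose, none fell and 16 did not pass, where 4.43% of all genes were called. Ppargc1a, the coactivator PGC-1 alpha that cAMP induces in liver and muscle, rose by 1.50 ± 0.11 (SE, limma adjusted p = 0.00135), with 8.16, 8.47 and 8.13 in KO cells and 6.64, 6.84 and 6.77 in WT cells, all WT values being below the dim limit. Rgs2, a regulator of G protein signalling, rose by 0.47 ± 0.053 (SE, limma adjusted p = 0.007), with means of 10.32 ± 0.059 in KO cells and 9.85 ± 0.021 in WT cells (SD, n = 3 each). Sik1, a kinase that restrains CREB coactivators, rose by 0.32 (adjusted p = 0.0387), with means of 8.89 ± 0.068 in KO cells and 8.57 ± 0.028 in WT cells. The nuclear receptor gene Nr4a1, an early cAMP target, differed by 0.33 (adjusted p = 0.0676), Crem by 0.19 (0.39), the coactivator gene Crtc1 by 0.23 (0.467) and Crebbp by 0.08 (0.75). Creb1 itself averaged 12.12 in KO cells and 12.11 in WT cells (named after its values were seen), and the list's median difference was 0.01. Sik1 lost its call in all 6 fits that left out 1 sample (highest adjusted p 0.171), with arrays set to a common median and with a robust trend.

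**Figure D3:**
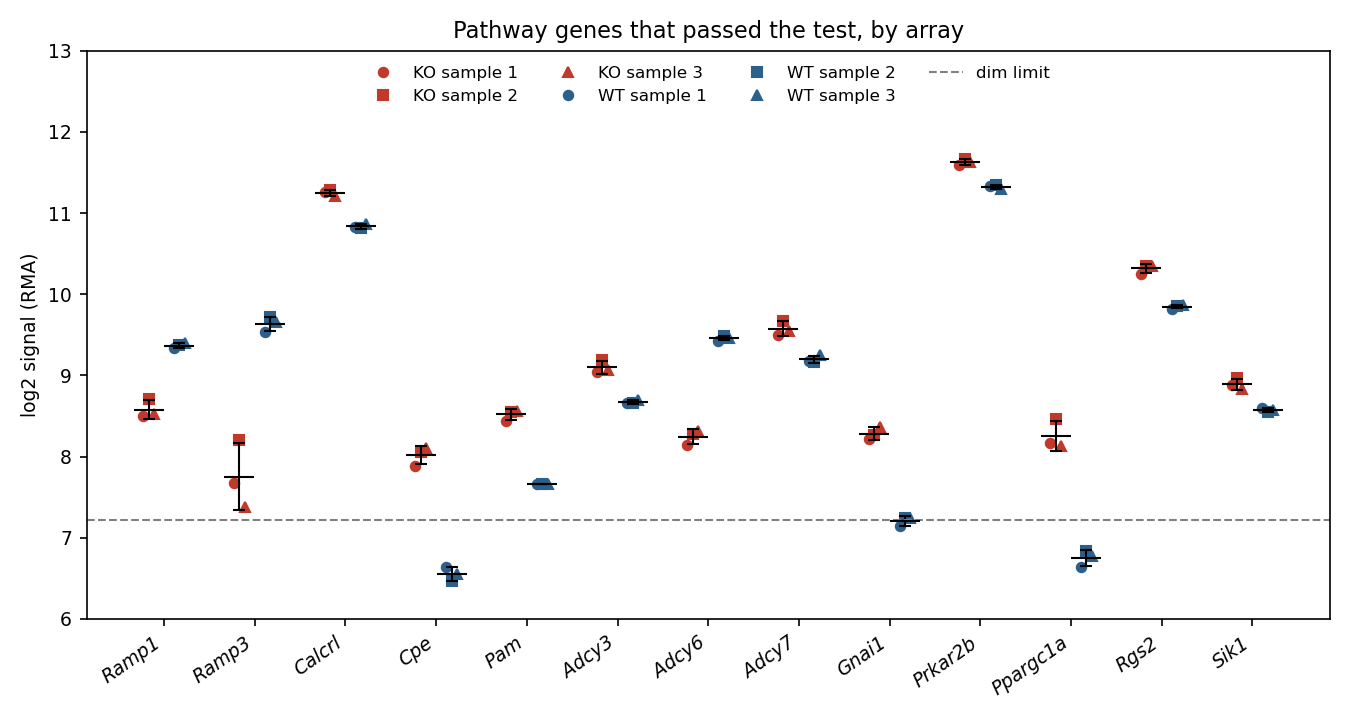
Log2 signal (vertical axis) on each array of the 13 pathway genes that passed the limma test, Etv5 KO samples in red left of Etv5 WT samples in blue. Black bars give the mean and SD of 3 samples and the dashed line the dim limit of 7.22. Ramp1, Ramp3 and Adcy6 are lower in KO cells and the others higher, and Cpe, Gnai1 and Ppargc1a in WT cells have means below the line.

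The genes most like Glp1r and Crhbp over the 6 arrays were sought by distance between values centred on each gene's mean, among 17132 other genes. The 5 nearest to Glp1r were Stag3, a meiotic cohesin subunit (distance 0.16), Epcam, an epithelial adhesion molecule (0.29), Ccdc38 (0.36), Cxcr5, a chemokine receptor of B cells (0.41), and Slc9b1, a sodium-proton exchanger (0.60). Stag3, the closest, measured 8.58, 8.93 and 8.78 in KO cells and 11.61, 11.65 and 11.83 in WT cells. As in Glp1r, KO sample 2 was the highest KO array and WT sample 3 the highest WT array of Stag3. Stag3 was picked by its distance over these same values, which favours such a match. The share of all genes with this order was not counted. Crhbp had no neighbour as close: Bhlhe41, a transcriptional repressor, lay at 0.50, Cyp4f18, a leukotriene-metabolising cytochrome P450, and the uromodulin gene Umod at 0.52 each, Pla2g7, which inactivates platelet-activating factor, at 0.57 and the galectin gene Lgals1 at 0.62. With 3 arrays a genotype, such likeness is set mostly by the size and direction of the genotype difference.

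**Figure D4:**
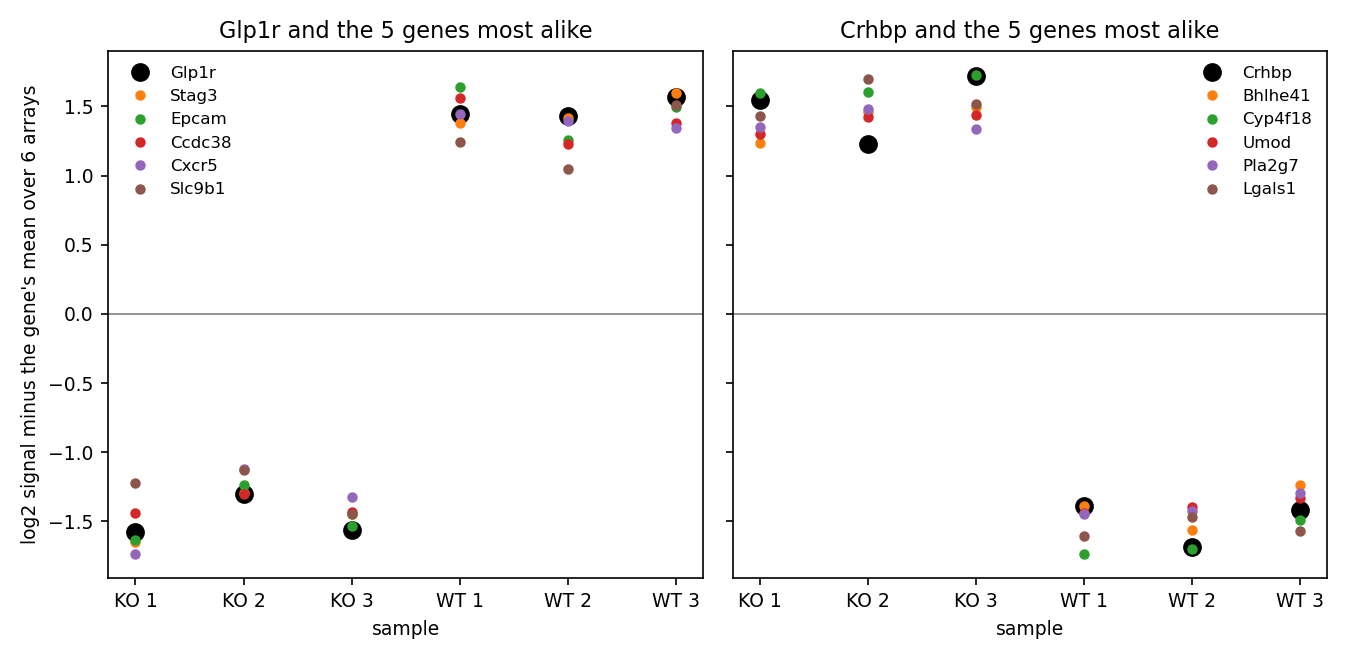
Log2 signal minus each gene's mean over the 6 arrays (vertical axis) by sample, for Glp1r and Crhbp (large black points) and the 5 genes nearest to each. The Glp1r set is low in KO samples and high in WT samples, and the Crhbp set is high in KO samples and low in WT samples; Crhbp is lower in KO sample 2 than the genes grouped with it.

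The genes beside Glp1r and Crhbp on the chromosome were looked at after the other results were seen, by their order in assembly GRCm38.p6. Glp1r lies on chromosome 17 between Dnah8, an axonemal dynein gene, and Umodl1, which differed by 0.03 and -0.20 (limma adjusted p = 0.979 and 0.72). One gene further out, Glo1, encoding the methylglyoxal-clearing enzyme glyoxalase, differed by -0.08 (adjusted p = 0.723). The number of this Glo1 probe set falls between those of chromosome 19 and chromosome 2 genes. It may read another locus, which was not checked. On the other side of Glp1r, beyond Umodl1, the cholesterol exporter gene Abcg1 fell by 0.59 (limma adjusted p = 0.00858). It measured 10.29, 10.48 and 10.28 in KO cells and 10.91, 10.97 and 10.96 in WT cells. Crhbp lies on chromosome 13 between Aggf1 and S100z, which differed by -0.04 and -0.10 (adjusted p = 0.941 and 0.69), and Zbed3, beyond Aggf1, differed by -0.04 (0.905). F2rl1, beyond S100z, had no probe set of its own. Of the measured neighbours Abcg1 alone passed the test, where 4.43% of all genes were called. None differed by as much as Glp1r or Crhbp, but those 2 genes were chosen for their difference, which favours that outcome.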

How the data were processed

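Total RNA of 6 samples, 3 Etv5 KO and 3 Etv5 WT, was hybridised to Affymetrix arrays after biotin labelling, per the labels' protocols. The values are log2 signals per probe set, deposited as 1 column per sample for 35556 probe sets. RMA and Partek 6.5 are the tools named in the submitters' processing notes. Background settings, filters and detection calls are not given in the sources used. Their scale was judged from their range (2.58 to 14.7), and the number of arrays limits the precision.

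Genotypes and sample numbers come from the titles. The annotation names 21789 probe sets with 1 gene symbol, 1621 with several and 12146 with none. A gene was represented by its brightest single-gene probe set. limma 3.58.1 under R 4.3.3 fitted all 6 arrays (lmFit, eBayes, no trend, no filter, no covariate), with Benjamini-Hochberg adjustment over all probe sets and a threshold of 0.05. Intervals come from this fit, which was tested on simulated data. With 3 samples against 3, exact permutation cannot reach below p = 0.1 and was not used.

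The members and lists were chosen with earlier results of these data known. Genes named are the members, each pathway list's called genes and the 4 others of smallest p, and the 5 most alike in pattern; exceptions are marked. Same-numbered samples were not treated as paired: deviations from the genotype means correlated at -0.12, 0.016 and 0.26 for numbers 1, 2 and 3. Between differently numbered samples the correlations ran from -0.35 (KO sample 3 with WT sample 2) to 0.31 (KO sample 1 with WT sample 2). The alternatives were a block for the sample number, a filter on the dimmest 40% of probe sets, a fit on single-gene probe sets, 3 renormalizations, a robust trend, array weights, leaving out each sample, averaging a gene's probe sets, and other dim limits. Promoter sequences are from RefSeq (GRCm38.p6; 9 of 10 members matched).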

Additional observations from a re-analysis of the deposited data

How the results depend on the processing

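The differences of Glp1r (-3.05 to -2.91) and Crhbp (2.89 to 3.13) moved by less than the larger SD of the 2 genotypes in each of 15 alternatives. The count of 0 called among the 8 other receptors and among the peptide ligands was the same in all 15. The fit without the dimmest 40% did not test Glp2r, Gcgr or dim ligand genes such as Ghrh and Pth. Over all probe sets, 1095 were called, and between 544 and 1452 in 14 alternatives. The fewest came with the sample number as a replicate block and the most with array weights. With 1 sample left out, 565 to 857 were called. The lowest of these counts were without WT sample 1 (565), KO sample 3 (586) and WT sample 2 (620). With the block, the receptor and RAMP list had 2 calls in place of 3, Calcrl losing its call (adjusted p = 0.0785), the cAMP signalling list had 2 calls in place of 5 and the CREB list 1 in place of 3; the numbers were not shown to pair samples. Leaving out 1 sample gave 2 to 3 calls in the cAMP signalling list, from fits with fewer samples. Leaving out the dimmest 40% gave 1 called peptide enzyme in place of 2, because Cpe was removed with Glp2r and Gcgr. Nr4a1 passed in 5 alternatives (smallest adjusted p 0.0145). The number of members above the dim limit in both genotypes was 7, but 2 with the 99th percentile of the ruler, 3 with the median of all probe sets and 10 with the brightest Y-linked gene, Kdm5d, as the limit. The table used holds no detection calls, so dim genes cannot be called absent.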
